A study of Homo sapiens with 6 samples.

Results

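The miR-320 family was represented by 5 of the 2019 human miRNA probes on the array: hsa-miR-320a, hsa-miR-320b, hsa-miR-320c, hsa-miR-320d and hsa-miR-320e, written below without the species prefix. The members were selected by name, and the family was taken up because earlier results of these data had placed miR-320a among the probes lower after cisplatin. The contrast of cisplatin with control is therefore given for the members as a description, and nothing is supported with it. All 5 members lay above the detection limit on all 6 arrays and entered the fit.

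The arrays measured RNA of HuH7, a long-established line of human liver cancer cells, in 2 groups of 3 samples. Control cells received no cisplatin and treated cells received 1 µg/ml of this platinum drug, which crosslinks DNA, for 24 h. Total RNA was labelled with a single dye and hybridised to 1-colour arrays, and the comparison asked which miRNAs differ after the drug. Samples carry the numbers 1 to 3 in both groups. The labels name no separate cultures behind them, so p-values measure how these samples scatter, and that scatter may be technical.

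Most miRNAs are cut from a long primary transcript by the nuclear enzyme Drosha and then trimmed by Dicer. The miR-320 hairpin is known as an exception. Its short transcript begins at the hairpin itself and keeps a 5′ cap, so that Drosha is not needed, and the cap directs export by a route other than the usual Exportin-5. Only the 3′ arm is then loaded efficiently. Whether every gene of the family is transcribed in this way was not tested here. The seed, bases 2 to 8 of the mature miRNA, chooses the target messages, so miRNAs with one seed are expected to share targets.

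Mature sequences were found for 4 of the 5 members in the RefSeq tables (GRCh38.p14). They are shown because these 4 differ by few bases, and because 1 of them has another seed. The seed is in capitals, and sequences run 5′ to 3′.
miR-320b: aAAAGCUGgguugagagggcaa
miR-320c: aAAAGCUGgguugagagggu
miR-320d: aAAAGCUGgguugagagga
miR-320e: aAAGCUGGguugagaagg
miR-4429: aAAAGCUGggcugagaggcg

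With positions counted from 1 at the 5′ end of miR-320b, miR-320c differed by C20U, miR-320d by G19A and miR-320e by G17A. miR-320c, miR-320d and miR-320e were also 2, 3 and 4 bases shorter than miR-320b. The 4 sequences shared an unbroken stretch of 15 bases that occurred in 0 other mature miRNAs of the table, which holds 2370 names. The sequences of the array's probes were not used here, so the share of each signal that came from a neighbouring member was not tested. miR-4429 is not a member, but was the 1 further miRNA with the seed of miR-320b. It differed from miR-320b by U11C, G19C and C20G.

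The seed of miR-320e was shifted by 1 base, because its annotated 5′ end lies 1 base further in. The hairpins show this, with the mature sequence in capitals.
MIR320B1: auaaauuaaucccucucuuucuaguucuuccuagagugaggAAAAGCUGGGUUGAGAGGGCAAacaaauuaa
MIR320E: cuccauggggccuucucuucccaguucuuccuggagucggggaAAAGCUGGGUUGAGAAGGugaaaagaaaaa

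The base just before the mature sequence was A in the miR-320e hairpin and G in the other miR-320 hairpins listed. In each the mature sequence lay in the 3′ arm, starting at base 42 of 72 in MIR320B1 and at base 44 of 73 in MIR320E.

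Several members are made from more than 1 gene with the same mature sequence, and their probes could not tell these genes apart. miR-320b comes from MIR320B1 (chr1:116671746-116671817, plus strand) and from MIR320B2 (chr1:224257040-224257110, minus strand). The first lay in no other annotated gene and the second within the span of the protein-coding gene NVL. miR-320c comes from MIR320C1 (chr18:21683518-21683589, plus strand), within ABHD3, and from MIR320C2 (chr18:24321675-24321746, plus strand), within OSBPL1A. miR-320d comes from MIR320D1 (chr13:40727816-40727887, minus strand) and MIR320D2 (chrX:140926160-140926231, minus strand), neither inside another gene. miR-320e comes from MIR320E alone (chr19:46709282-46709354, minus strand), within PRKD2. Whether these positions are exonic or intronic was not analysed here.

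Before the members' values, 1 paragraph describes the arrays as a whole. A probe counted as detected when its foreground exceeded the average of the 925 blank spots on that array by more than 2 of their SDs. These limits ran from 209 to 247 scanner units, and 329 to 738 human probes passed them per array. The 5 hepatocyte markers fixed for this work, miR-122-5p among them, were detected on all 6 arrays. Their summed foreground was 8080 to 9524 in control and 8141 to 10272 in cisplatin arrays. Among markers of other cell types, detection on all 6 arrays was found for 0 of 6 of blood, 1 of 2 of endothelium, 2 of 8 of stroma and muscle and 0 of 2 of neural cells. The mean blank signal was 196, 213.1 and 206.8 in control arrays 1, 2 and 3 and 183.9, 210.6 and 204.9 in cisplatin arrays 1, 2 and 3. It was thus lower in the cisplatin array of each same-numbered pair. The scanner output also holds a number headed Cell, which is read here as the slide position. It was 3, 1 and 3 for control arrays and 4, 2 and 4 for cisplatin arrays, so position and treatment cannot be told apart.

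For each of the 5 members the raw foreground of control and cisplatin arrays overlapped. miR-320a read 603, 794 and 744 scanner units in control arrays 1, 2 and 3, and 567, 776 and 719 in cisplatin arrays 1, 2 and 3. The cisplatin array was the lower in every same-numbered pair, while the groups overlapped. Raw foreground was lower in 3 of 3 pairs for 16.4% of all tested probes. The local background around the miR-320a spot was lower as well in each pair, at 138, 163 and 147 in control and 130, 156 and 139 in cisplatin arrays. The part of background in the raw difference was not tested.

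miR-320b read 534, 619 and 654 in control arrays and 598, 665 and 624 in cisplatin arrays. It was higher after cisplatin in pairs 1 and 2 and lower in pair 3. miR-320c read 523, 628 and 563 in control arrays and 529, 572 and 660 in cisplatin arrays. It was lower in pair 2 alone, and the highest and the lowest array of the probe belonged to different groups. miR-320d read 467, 516 and 554 in control arrays and 461, 553 and 531 in cisplatin arrays. miR-320e, the member with the shifted seed, read 389, 417 and 409 in control arrays and 370, 440 and 422 in cisplatin arrays. Neither of these had the same direction in all 3 pairs.

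Relative to the blank limit, miR-320a stood at 2.72 to 3.31 times the limit over the 6 arrays and miR-320e at 1.74 to 1.86 times. The others lay at 2.43 to 2.87 times (miR-320b), 2.32 to 2.90 times (miR-320c) and 2.12 to 2.43 times (miR-320d). Every member was thus measured above background, but in the lower part of the scanner's range. These ratios describe each spot, and do not compare the amounts of different miRNAs.

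**Figure D1:**
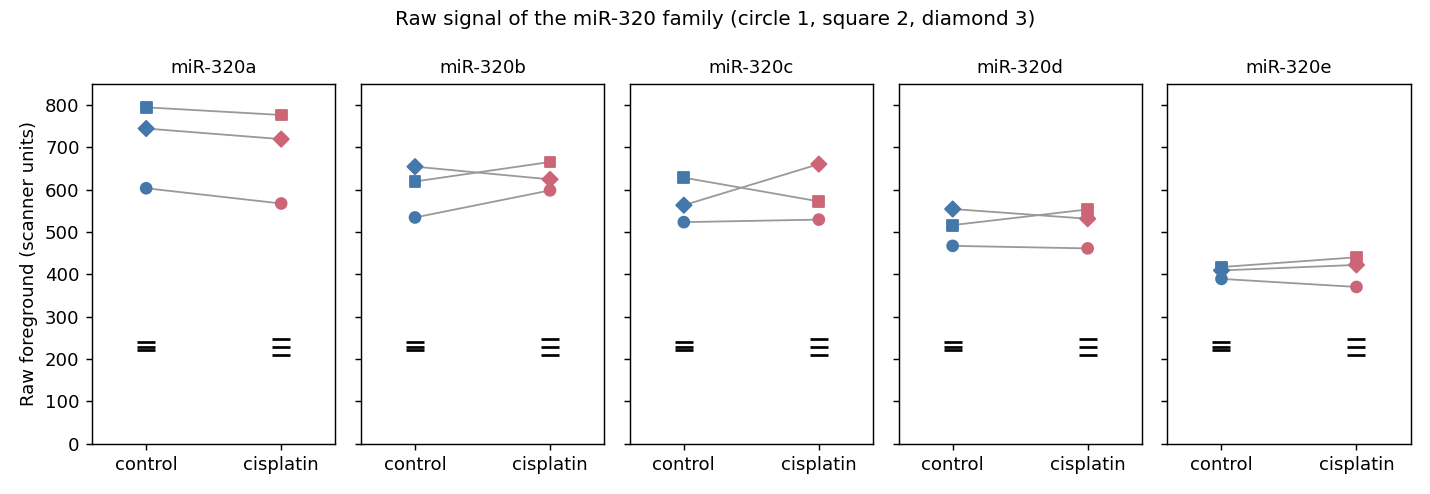
Raw foreground in scanner units (linear axis) of the 5 miR-320 probes in 3 control (blue) and 3 cisplatin (red) arrays, with grey lines joining same-numbered samples and black dashes marking the blank limit of each array. miR-320a runs from 567 to 794 and miR-320e from 370 to 440, and the lines of miR-320a all slope down while those of miR-320b and miR-320c cross.

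After background correction (normexp, offset 50), quantile normalization and a log2 transform, all 5 members lay below 0 in the comparison of cisplatin with control. A negative value was also found for 53.7% of the 324 tested probes. Of these 324, 243 were detected on all 6 arrays, as the members were. The shares of tested probes given in this text therefore include probes that entered through 1 group alone. Shares over the 243 are not given. The median log2 difference of the members was -0.093, and that of all tested probes -0.012. The mean log2 level of the family per array was 8.80 ± 0.030 without the drug and 8.67 ± 0.052 with it (SD, n = 3 each), lower in 3 of 3 pairs. The differences were small, at most 1.19-fold. limma called 0 of the 5 members at an adjusted p under 0.05, where 0.309% of tested probes were called. At an unadjusted p under 0.05 there were 2 members, miR-320a and miR-320d, where 15.7% of tested probes were found. Nothing is read from either count, since the family was taken up with this contrast known.

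miR-320a had normalized log2 levels of 9.23, 9.38 and 9.33 in control arrays 1, 2 and 3, and of 9.02, 9.11 and 9.07 in cisplatin arrays 1, 2 and 3. Every cisplatin array lay below every control array. Its log2 difference was -0.25 (SE 0.061), with -0.21, -0.28 and -0.26 in pairs 1, 2 and 3.

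miR-320d had levels of 8.73, 8.56 and 8.71 in control and 8.53, 8.49 and 8.49 in cisplatin arrays. Its groups did not overlap either, with a log2 difference of -0.16 (SE 0.063), though control array 2 came close to cisplatin array 1. Groups without overlap and lower after cisplatin were found for 10.2% of tested probes. That share includes probes, such as miR-1228-3p, that entered through the control group alone.

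miR-320b had levels of 8.93, 8.90 and 9.01 in control and 9.07, 8.85 and 8.81 in cisplatin arrays. Its log2 difference was -0.038 (SE 0.084), and its highest level of all was in cisplatin array 1. With 1 array left out it ranged from -0.12 to 0.017. miR-320c had levels of 8.86, 8.88 and 8.82 in control and 8.81, 8.58 and 8.90 in cisplatin arrays, a log2 difference of -0.088 (SE 0.091). Without cisplatin replicate 3 it was -0.16, and without cisplatin replicate 2 it was 0.0026. For both probes the SE was larger than the difference.

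miR-320e had levels of 8.31, 8.09 and 8.21 in control and 8.18, 8.06 and 8.09 in cisplatin arrays, a log2 difference of -0.093 (SE 0.074). It was lower in each pair, by little in pair 2 (-0.030), and the groups overlapped. Without control replicate 1 the difference was -0.041 and without control replicate 2 it was -0.15. Together miR-320a, miR-320d and miR-320e were lower in 3 of 3 pairs, which held for 20.4% of all tested probes.

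The position of a probe in the brightness order of its own array does not change when an array is scaled by 1 factor. Quantile normalization gives probes of equal rank equal levels. The ranks below therefore restate the normalized levels above, and are no separate observation. Counted from the brightest of the 2019 human probes, miR-320a ranked 47 to 53.5 in control and 58 to 63.5 in cisplatin arrays, without overlap. miR-320d ranked 79 to 88 in control and 89 to 92.5 in cisplatin arrays. The ranks overlapped for miR-320b (64 to 70 and 60 to 75), for miR-320c (71 to 74.5 and 70 to 87) and for miR-320e (101.5 to 112 and 107.5 to 113).

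The direction of the family depended on how arrays were scaled to each other. miR-320a was negative under all 20 other settings tried, from -0.29 with cyclic loess to -0.039 when arrays were scaled to their 75th percentile. With scaling by 1 factor per array or none the other members were positive. With the 75th percentile, miR-320b stood at 0.12, miR-320c at 0.092, miR-320d at 0.065 and miR-320e at 0.038. Under that scaling the median of all tested probes was itself 0.095. In the log2 of the authors' deposited values that median was 0.14, with miR-320a at -0.094 and the others between 0.0093 and 0.090. Less this common shift, miR-320a, miR-320d and miR-320e were negative under 20 of 20 settings, miR-320c under 19 and miR-320b under 15. Some of these settings, such as the replicate block, cannot move a member's value.

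**Figure D2:**
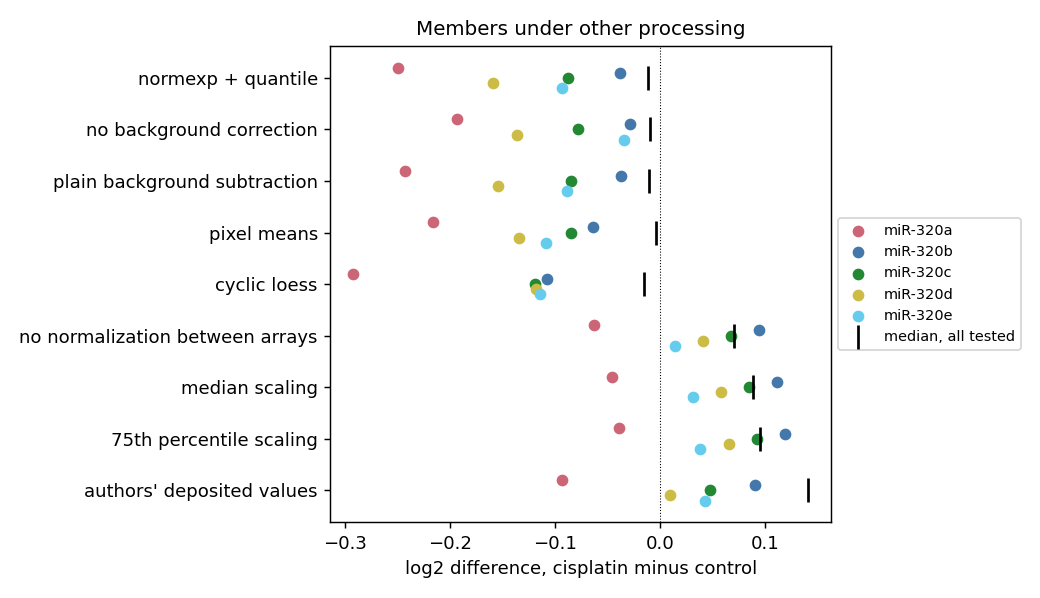
Log2 difference of cisplatin minus control for the 5 members under the reported processing (top) and 8 other ways of correcting or scaling the arrays, with a black bar for the median of all tested probes. miR-320a, in red, is the lowest point in every setting and lies below 0 throughout, while the other members move from below 0 to above 0 with that median.

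miR-320a was singled out from the others after these values were seen. Earlier results of these data had also placed it among the probes lower after cisplatin. miR-320a was thus favoured in advance to lie lower against the other members. Its log2 level minus the mean of the other 4 members was computed within each array, where scaling by 1 factor cancels. This was 0.52, 0.78 and 0.64 in control arrays 1, 2 and 3, and 0.37, 0.61 and 0.50 in cisplatin arrays 1, 2 and 3. The value differed more between the numbers than between the groups, which overlapped, but it was lower after cisplatin in each pair. The pair differences were -0.15, -0.17 and -0.14. With no normalization between arrays they were -0.15, -0.092 and -0.11, and from the foreground alone, with neither correction nor normalization, -0.11, -0.070 and -0.086. The same quantity for the other members, each against its own other 4, was 0.11 for miR-320b, 0.047 for miR-320c, -0.042 for miR-320d and 0.041 for miR-320e. Its sign varied from pair to pair for each of these 4. These values show unequal readings of the probes, and no test is attached to them.

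**Figure D3:**
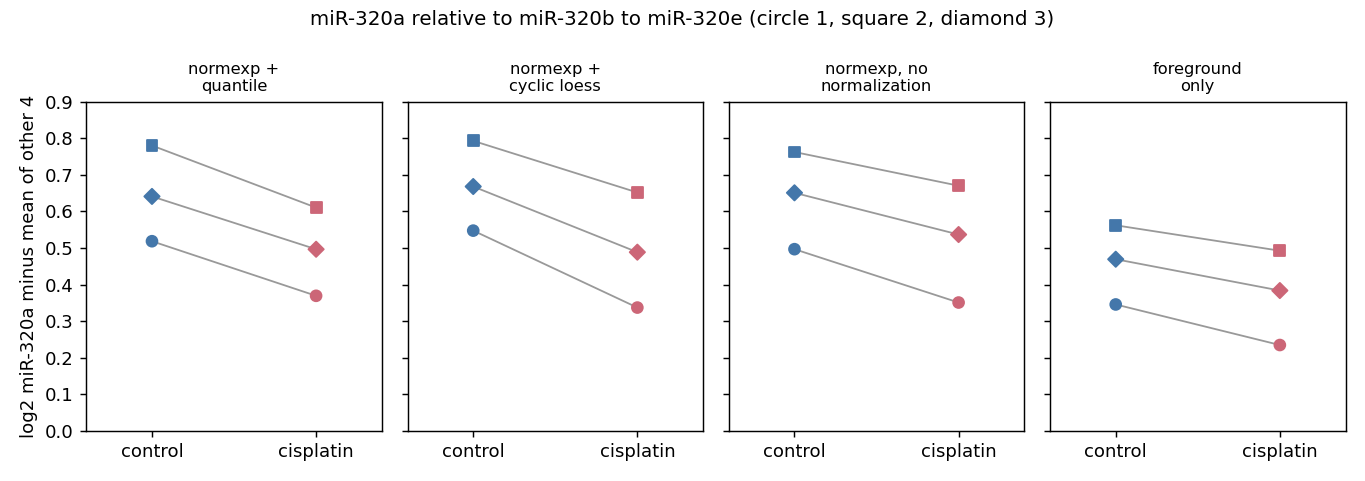
Log2 signal of miR-320a minus the mean of miR-320b to miR-320e within each array, for control (blue) and cisplatin (red) arrays with grey lines joining same-numbered samples, under 4 ways of processing. Each of the lines slopes down, and the control and cisplatin points overlap, with the mean going from 0.65 to 0.49 under normexp and quantile normalization.

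The profiles of the members over the 6 arrays were also compared with one another. The root-mean-square difference between the profiles of 2 members, each centred on its own mean, ran from 0.046 on the log2 scale for miR-320d and miR-320e to 0.16 for miR-320a and miR-320b. All 10 pairs lay below the median over the 52326 pairs of tested probes, 0.20, a median that takes in dim and variable probes too. The 5 other probes whose centred profile came nearest to the family mean were miR-93-5p (0.036), miR-625-3p (0.037), miR-106b-5p (0.039), miR-1268b (0.046) and miR-122-5p (0.047). The median over the 324 tested probes was 0.155. The members, each of which enters that mean, lay at 0.103 (miR-320a), 0.078 (miR-320b), 0.085 (miR-320c), 0.046 (miR-320d) and 0.053 (miR-320e). Counted from the nearest probe, miR-320d ranked 5, miR-320e 8, miR-320b 29, miR-320c 37 and miR-320a 64. Probes outside the family thus came as near to its mean as the members did. miR-625-3p entered the fit through the control group alone, detected on 3 control and 2 cisplatin arrays. It lay at 0.929 to 1.06 times the blank limit, and miR-1268b at 1.01 to 1.12 times. miR-93-5p and miR-106b-5p come from the miR-106b-25 cluster, and miR-122-5p is the main miRNA of hepatocytes. Their log2 differences were -0.14 (SE 0.050), -0.057 (SE 0.046) and -0.21 (SE 0.050). The control values of miR-122-5p were identical after quantile normalization, so its SE is too small. Some values of miR-93-5p and miR-106b-5p were also identical within a group, so their SEs may be too small as well. Likeness over 6 arrays includes the contrast of the groups, so no test of it is given for these probes. The raw foreground of miR-93-5p and miR-106b-5p was higher after cisplatin in 3 of 3 pairs, unlike that of miR-320a. For miR-122-5p, miR-625-3p and miR-1268b it was lower in 3 of 3 pairs, as for miR-320a.

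miR-4429, which shares the seed of miR-320b outside the family, read 417, 495 and 473 in control arrays and 454, 485 and 495 in cisplatin arrays. Its groups overlapped, with a log2 difference of -0.070 (SE 0.081, limma adjusted p = 0.778). The SE exceeded the value. With the 75th percentile it stood at 0.12.

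Other miRNAs listed for this work as made without Drosha were compared too. Whether each of them is made in this way was not tested. miR-484, whose capped hairpin also begins at the transcription start, read 240, 263 and 281 in control and 220, 266 and 252 in cisplatin arrays, close to the blank limit throughout (1.05 to 1.23 times). Its log2 difference was -0.14 (SE 0.078, limma adjusted p = 0.476), lower in 3 of 3 pairs with overlapping groups. Without control replicate 3 it was -0.079, without background correction -0.073, with the 75th percentile -0.083 and with the authors' deposited values -0.29. Both with pixel means and without control replicate 1 it was -0.21.

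Mirtrons are short introns that become hairpins by splicing. Of the 24 probes listed as mirtrons, 7 were bright enough to be tested, 5 of them detected on all 6 arrays. Whether each is spliced out in this way was not tested. Of these 5, 2 were negative and 3 positive, where 53.7% of all tested probes were negative. limma called 0 of the 5, against 0.309% of all tested probes, with adjusted p from 0.325 to 1. At an unadjusted p under 0.05 there were 0, against 15.7%.

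miR-1237-5p stood at a log2 difference of 0.17 (SE 0.071), with 0.37 under the 75th percentile and 0.11 under cyclic loess. miR-1227-5p stood at 0.19 (SE 0.12), with 0.064 without control replicate 3, 0.068 without background correction and 0.56 with the authors' deposited values. miR-1234-5p stood at 4e-04 (SE 0.13) and miR-1228-5p at -0.10 (SE 0.13), and the SE of each exceeded its value. miR-1233-1-5p stood at -0.21 (SE 0.11), with -0.10 without cisplatin replicate 3 and -0.013 under the 75th percentile.

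The other 2 mirtron probes entered the fit through 1 group alone, so no test is read from them. miR-1229-5p was detected on 2 of 3 control and 3 of 3 cisplatin arrays. It read 240, 235 and 229 in control and 257, 267 and 264 in cisplatin arrays, with a log2 difference of 0.48 (SE 0.14). This was 0.18 without background correction, 0.26 with pixel means and 1.13 with the authors' deposited values. miR-1228-3p was above the blank limit on 3 of 3 control and 0 of 3 cisplatin arrays. It read 231, 247 and 232 in control and 191, 231 and 215 in cisplatin arrays. Its log2 difference was -0.20 (SE 0.085), and -0.12 without background correction. The cisplatin readings lay under the blank limit, and the control readings at only 1.02 to 1.05 times it. No fold is therefore read from this probe.

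**Figure D4:**
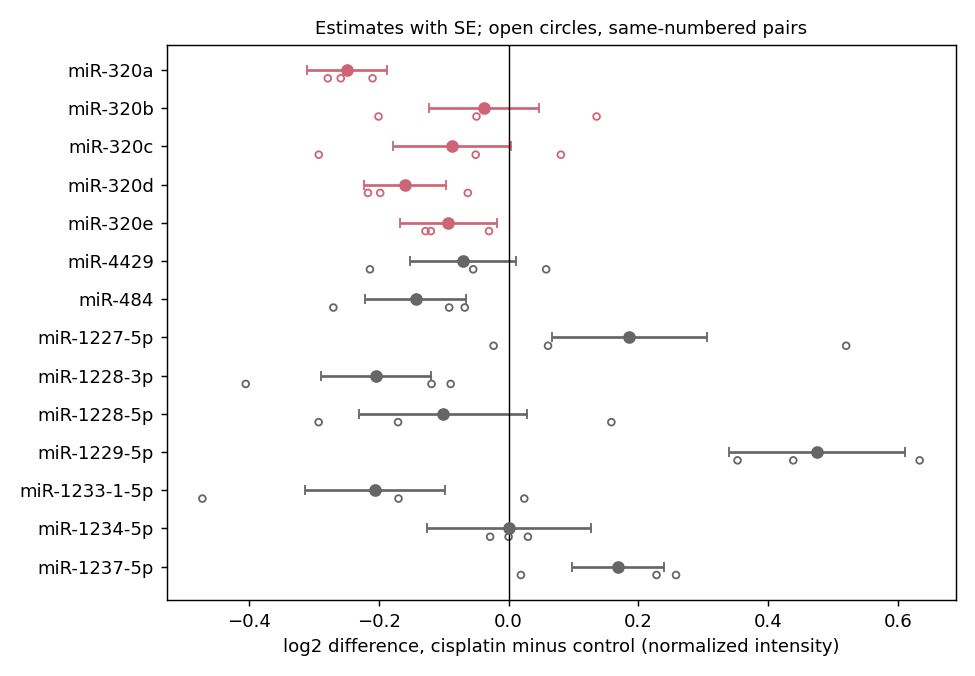
Log2 difference of cisplatin minus control with its SE for the 5 miR-320 members (red) and for miR-4429, miR-484 and the 7 tested mirtron probes (grey), with open circles for the 3 same-numbered pairs. The members lie between -0.25 and -0.038, and the other probes between -0.21 and 0.48.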

How the data were processed

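The scanner files hold linear intensity for each spot and for the area around it, as pixel medians and means, per the file headers. Per the labels the RNA carried Hy5, while the file headers name the channel 532. The scanner is not named in them. The authors' deposited table holds linear intensity too, with a median of 31 on every array. It is a straight line in the scanner foreground (largest residual 5e-06), with 183.9 to 212.7 units subtracted, and the lowest foreground it lists was 204 to 234 units. Higher deposited values mean higher foreground, with a slope that differed between arrays, from 0.93 to 1.09. The deposited table served as an alternative.

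Pixel medians were background-corrected by normexp (offset 50). The 2019 human probes were then log2-transformed and quantile-normalized between arrays (limma 3.58.1, R 4.3.3; figures with matplotlib 3.10.9). The fit took in the 324 probes that every array of 1 group or of both detected. lmFit and eBayes were used with Benjamini-Hochberg adjustment at 0.05, and checked on simulated data with independent probes and changes of 1 log2 unit. The members' differences were much smaller, so the check does not show whether differences of their size could be called. The number of arrays limits the precision.

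Members and lists were chosen with earlier results of these data known. Named were the members, their seed-sharers, tested miRNAs listed as Drosha-independent, the 5 probes nearest to the family's profile, and miR-122-5p as a marker.

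Deviations from the group means correlated within numbers (0.44, 0.235 and 0.204 over tested probes for numbers 1, 2 and 3). Control 3 and cisplatin 2 reached 0.229, so numbers 2 and 3 are not set apart in this way. Same-numbered differences are shown as pairs, but the reported fit, its SEs and its p-values took no account of them. Only the replicate block did. The alternatives varied background correction, spot summary, normalization, detection filter, moderation, the replicate block and the arrays used.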

Additional observations from a re-analysis of the deposited data

How the results depend on the processing

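Under all 20 alternatives, limma called 0 of the 5 members. It also called 0 of the other tested miRNAs that share their seed or are listed as made without Drosha. Under the reported processing 0.309% of all tested probes were called, so counts of 0 say little. Nothing is read from the members, or from the 2 mirtron probes that entered the fit through 1 group alone. With the replicate block, which treats same-numbered samples as pairs, the counts were 0 and 0 as well. The median log2 difference of the members, -0.093, became 0.041 without normalization between arrays, 0.058 with median scaling, 0.065 with the 75th percentile and 0.043 with the authors' deposited values. The medians of all tested probes were 0.071, 0.088, 0.095 and 0.14 there, so the members' median lay below that of all tested probes in each. When 1 array was left out the members' median ranged from -0.16 (without cisplatin replicate 3) to -0.064 (without cisplatin replicate 2), and was -0.15 without control replicate 2. Leaving out both arrays numbered 2 (positions 3 and 4 only) gave -0.12, an alternative chosen after seeing the data, as was a block for positions 1 and 2 against 3 and 4.

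Other named probes turned sign. In the order no normalization, median scaling, 75th percentile and authors' values, miR-4429 stood at 0.095, 0.11, 0.12 and 0.095, miR-1228-5p at 0.044, 0.061, 0.068 and 0.037, miR-93-5p at 0.22, 0.24, 0.24 and 0.20, and miR-106b-5p at 0.23, 0.25, 0.26 and 0.21. miR-625-3p stood at 0.0024 with the authors' values and 0.0055 with pixel means, and miR-1268b at 0.070 with the latter. miR-1234-5p stood at -0.093 with cyclic loess and ranged from -0.10 to 0.085 with 1 array left out (-0.048 without control replicate 2 and -0.053 without control replicate 3). In the same fits miR-1228-5p ranged from -0.22 to 0.031 and miR-4429 from -0.13 to 5e-04. The cause was not tested. Member signals of only 1.74 to 3.31 times the blank limit restrict what these probes can show.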
